A study of Mus musculus with 24 samples.

Results

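RBC and WT26 are mouse embryonic stem (ES) cell lines in which *Mettl3* and *Mettl14* were not knocked out. They served as controls for *Mettl3* KO and *Mettl14* KO cells, and the nuclear RNA of RBC and WT26 was compared here gene by gene. The members are the autosomal genes that passed a filter on low counts, 16316 of the 43008 autosomal genes in a table of 47937 genes. WT26 is a wild-type line, RBC carries Rosa26 BirA-V5 and Cre-ERT2, and both are of 129/Sv x C57Bl6 background. *Mettl14* KO cells are a single clone made from WT26, and *Mettl3* KO cells are a clone made from RBC whose label gives the Rosa26 genotype of RBC beside the knockout. All lines were grown on gelatin with Serum Replacement and LIF. RBC and WT26 each gave 2 of the 8 RNA-seq libraries, and each also gave 2 input libraries of the m6A immunoprecipitation (MeRIP) experiment, of the 24 samples in all.

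ES cells are kept self-renewing by LIF, which acts through Stat3, and by transcription factors such as Oct4 (Pou5f1), Sox2 and Nanog. Germline genes and many imprinted genes are held in check in these cells by DNA methylation and by repressor proteins bound at their promoters. Lines of the same genotype can drift apart in culture, in such epigenetic marks and in chromosome content. Each knockout was compared in the study with the control line it was made from.

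The labels were checked at the Rosa26 locus. Gt(ROSA)26Sor (ENSMUSG00000086429.9, chromosome 6 from 113067428 to 113077333 of GRCm38, a noncoding gene into which transgenes are inserted) had 58.6 and 56.2 normalized counts in RBC and 287.6 and 300.6 in WT26. The lines did not overlap, and the log2 fold change was -2.36 (SE 0.127, adjusted p = 1.3e-10 in edgeR). Thumpd3 overlaps it on the other strand and had a log2 fold change of -0.21. The ERT2 part of Cre-ERT2 derives from an estrogen receptor. The mouse estrogen receptor gene Esr1 had 43.7 and 49.3 normalized counts in RBC against 3.6 and 0.0 in WT26 (log2 fold change 4.49, SE 0.525). Whether these reads come from the transgene or from the mouse gene itself was not tested. In *Mettl3* KO cells, labelled with the Rosa26 genotype of RBC, Esr1 had 3.5 and 3.0, near the level of WT26, and Gt(ROSA)26Sor had 143.5 and 154.1, between the control lines. Whether these cells keep the insertions was not tested.

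The RBC and WT26 libraries held between 11321459 and 13664213 counted reads, and the common biological coefficient of variation was 0.0625. A chi-square statistic per degree of freedom, which is near 1 under sampling noise alone, was 30.2 between the RBC replicates and 2.75 between those of WT26. Of 11433 genes averaging 50 or more normalized counts, 9 differed more than 16-fold between the RBC replicates and 0 between those of WT26. These 9 were all higher in replicate 1 of RBC. Among them were Lars2, which had 98173 and 493.9 normalized counts in RBC, and the rRNA gene n-R5-8s1, with 2357 and 1.0, and neither of these was called. Gm23935, Gm15564 and Gm24245, also among them, were called. The median absolute log2 ratio between replicates was 0.0832 in RBC and 0.0857 in WT26. The p-values measure the spread between libraries, which are labelled as replicates with no statement of separate cultures.

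Both lines carried the markers of ES cells. The 10 ES cell markers summed to 32062 and 32646 normalized counts in RBC and 35646 and 36761 in WT26, and 0 of them were called. Of 10 fibroblast markers 6 were tested, with sums of 22516 and 21407 in RBC against 22619 and 21695 in WT26. Pdgfrb was called lower (log2 fold change -1.12), not without replicate 2 of RBC or replicate 1 of WT26, and Col3a1, Dcn and Lum were at 0 in all 4 libraries. Sums of the 6 neural markers were 1299 and 1274 in RBC and 937 and 972 in WT26, and those of the 8 primitive endoderm markers 219.6 and 221.8 against 149.2 and 135.3. Nes and Pax6, and Sox7 and Dab2, were called higher in RBC from these lists. All 5 neural markers tested differed on the adjusted p alone, 3 higher and 2 lower, beside 38.6% of all autosomal genes. The 7 primitive endoderm markers tested had a median log2 fold change of 0.16. In the input 6 of these had a median of -0.81, and 0 were called. Of the trophectoderm, primitive streak and 2-cell-like markers, with 2, 1 and 3 genes tested, 0 were called. Their part in other results was not tested, and in bulk RNA more cells of a type and more RNA per cell cannot be told apart.

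Genes were called when edgeR's quasi-likelihood test gave an adjusted p not above 0.05 and the log2 fold change exceeded 1 in size. By this rule 742 genes (4.55% of those tested) were higher in RBC and 658 (4.03%) were lower, together 1400 (8.58%). Of these, 382 had a log2 fold change beyond 2, with 235 higher and 147 lower. On the adjusted p alone 6299 genes (38.6%) differed. The calls were most frequent among weakly expressed genes, with 17.8% of those averaging under 50 normalized counts. In 1397 of the called genes the replicates of the lines did not overlap, as was so for 69.4% of all genes tested. Scaling by library size alone moved the median log2 fold change of all genes by -0.15 and gave 594 higher and 915 lower. Between a mean of 50 and 500 normalized counts 6.59% of genes were called, and of the 4811 genes above that 77 (1.60%) were called.

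The kinds of genes differed in how often they were called. Of 13084 protein-coding genes 7.77% were called, 574 higher and 442 lower. Of 1187 long noncoding RNA genes 15.7% were called, and of 665 pseudogenes 14.3%, with 30 higher and 65 lower. Small nucleolar RNA genes were called in 3.38% of 207. A pseudogene can share reads with its parent gene, so single values of this class are uncertain.

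The genes that were furthest apart were near 0 in one of the lines. Trim12a, a member of the Trim5 family of antiviral proteins spanning 104299894 to 104315466 on chromosome 7, had 106.9 and 111.4 normalized counts in RBC and 0.0 in both libraries of WT26. Taking 3 counts over the WT26 libraries as a floor, it was at least 74.2-fold higher in RBC. In the other direction, Tmprss11f, a membrane serine protease gene on chromosome 5, had 141.1 and 162.1 normalized counts in WT26 and 0.0 in both libraries of RBC, at least 94.6-fold lower. Afm and Gc, members of the albumin gene family on chromosome 5 that encode plasma carrier proteins, were at least 63.2-fold and 56.7-fold lower, and Pkhd1l1 on chromosome 15 at least 43.2-fold lower. In the input libraries Gc had 13 and 4.1 normalized counts in RBC and 33.0 and 34.7 in WT26 (log2 fold change -1.95, adjusted p = 0.157 in edgeR), short of a call. Pkhd1l1 had 1.9 and 6.1 there in RBC and 31.7 and 33.5 in WT26 (-3.02, adjusted p = 0.0113 in edgeR), and Afm was at 0.0 in RBC as in RNA-seq. In all, 29 called genes had no read in either library of the line with less, 12 of them in RBC and 17 in WT26.

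Other large rises had reads in both lines. Gm37245, a long noncoding RNA gene of chromosome 3 that overlaps Hrnr and Rptn on the other strand, had 281.6 and 261.2 normalized counts in RBC and 2.7 and 2.1 in WT26 (log2 fold change 6.72, SE 0.279). Myo7a, a myosin of sensory hair cells spanning 98051060 to 98119524 on chromosome 7, had 531.1 and 498.8 against 18.1 and 16.1 (4.89, SE 0.147). Neither gene had overlapping replicates. The remaining rises by rule were Mgat4c (log2 fold change 4.74), Ptprq (4.64), the noncoding Gm28321 (4.55), Tagln (4.40) and 1700019E08Rik (4.21). Tagln, which encodes the smooth muscle actin-binding protein transgelin, had 143.7 and 150.8 normalized counts in RBC and 6.3 and 7.5 in WT26 by RNA-seq. In the input libraries it had 69.4 and 26.6 in RBC and 28.4 and 38.4 in WT26, where the lines overlapped and the log2 fold change was 0.56 (adjusted p = 0.561 in edgeR).

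Among the large falls, Nod1, an intracellular sensor of bacterial peptidoglycan spanning 54923949 to 54972612 on chromosome 6, had 21.8 and 30.6 normalized counts in RBC and 425.9 and 516.4 in WT26 (log2 fold change -4.14, SE 0.159). Grin1, the obligatory subunit of NMDA glutamate receptors on chromosome 2, had 10.3 and 15.8 against 214.3 and 213.7 (-4.0, SE 0.211), and Rgcc (-4.05) and the antisense gene Gm36816 (-3.93) completed the group. The replicates of the lines did not overlap in any of the 4. The pseudogene Rps13-ps1 on chromosome 8 had 1082 and 1181 normalized counts in WT26, while RBC held a single read, a ratio of 2120 (95% counting interval 380.9 to 83950). Rps15a-ps7 on chromosome 2 was also lower (-5.33), with an input log2 fold change of -1.67 (adjusted p = 0.0822 in edgeR). The pseudogenes with the largest rises were Gm10499 on chromosome 17, with 264.4 and 304.6 normalized counts in RBC and 0.9 and 2.1 in WT26, and Gm8079 on chromosome 8 (4.29).

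**Figure D1:**
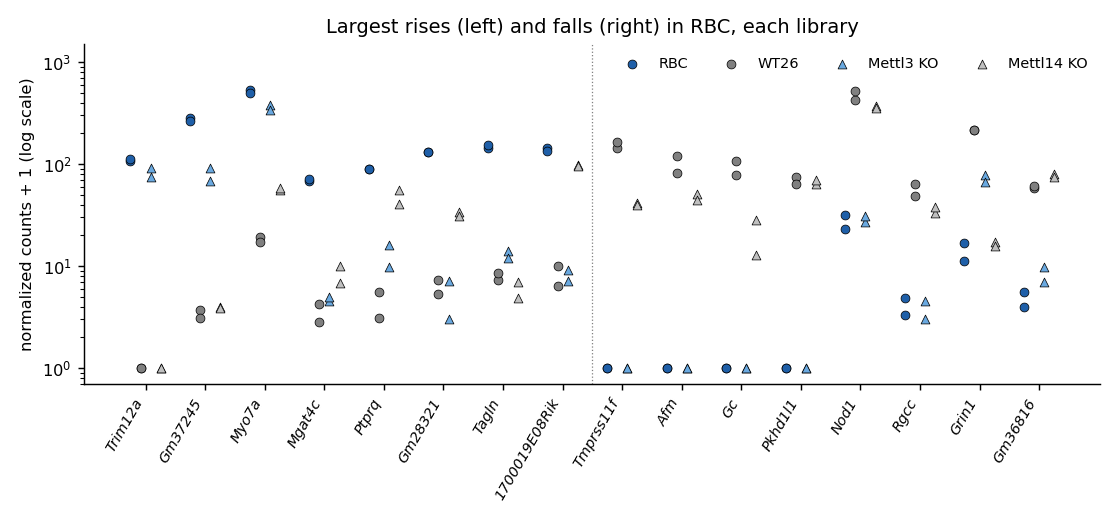
Normalized counts plus 1 on a log scale in each RNA-seq library for the protein-coding and long noncoding genes with the 8 largest rises and 8 largest falls in RBC against WT26; each point is 1 library, circles are the control lines and triangles the knockout lines. Trim12a and the first 4 falls are at 0 counts in both libraries of the lower control line and in both libraries of the knockout line made from it.

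Chromosomes 1 and 14 stood apart from the other autosomes. Among the 11433 genes averaging 50 or more normalized counts, the median log2 fold change was 0.45 on chromosome 1 (772 genes, quartiles 0.24 and 0.67) and 0.39 on chromosome 14 (403 genes, quartiles 0.18 and 0.58). On the other 17 autosomes the medians were between -0.09 and 0.03. On chromosome 1 89.0% of these genes were above 0 and on chromosome 14 86.8%, against 44.1% on the other autosomes. The share of tested genes called higher was 12.3% on chromosome 1 and 12.1% on chromosome 14.

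The same chromosomes stood apart in the input libraries, with medians of 0.47 and 0.43. In single RNA-seq libraries, the median deviation of chromosome 1 genes from the mean of all 8 libraries was 0.24 in both replicates of RBC and -0.19 and -0.24 in WT26. In *Mettl3* KO cells it was 0.14 and 0.13, and in *Mettl14* KO cells -0.16 and -0.14. Each knockout thus lay on the side of the line it was made from. The median of *Mettl3* KO against *Mettl14* KO cells was 0.30 on chromosome 1 and 0.19 on chromosome 14. On the other 17 autosomes that median was between -0.36 and 0.43, so knockout differences of this size were not particular to chromosomes 1 and 14. For chromosome 14 the deviations were 0.24 and 0.25 in RBC, -0.14 and -0.15 in WT26, 0.05 and 0.05 in *Mettl3* KO and -0.14 and -0.14 in *Mettl14* KO cells. The replicates of each line lay within 0.05 of each other, and copy number of DNA was not measured.

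**Figure D2:**
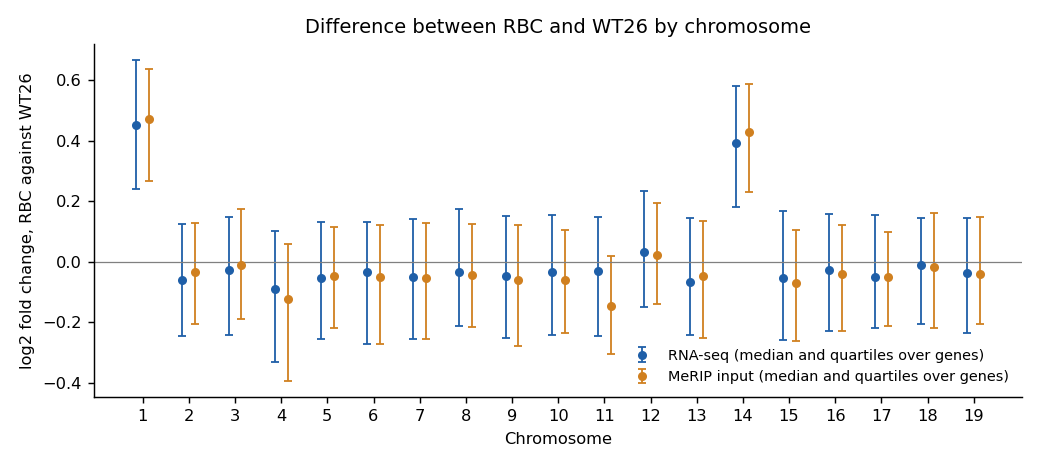
Median log2 fold change of RBC against WT26 for the genes of each autosome, with bars from the lower to the upper quartile over genes, in RNA-seq (blue) and MeRIP input (orange). Chromosomes 1 and 14 lie at 0.45 and 0.39 in RNA-seq, and the other medians lie between -0.09 and 0.03.

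**Figure D3:**
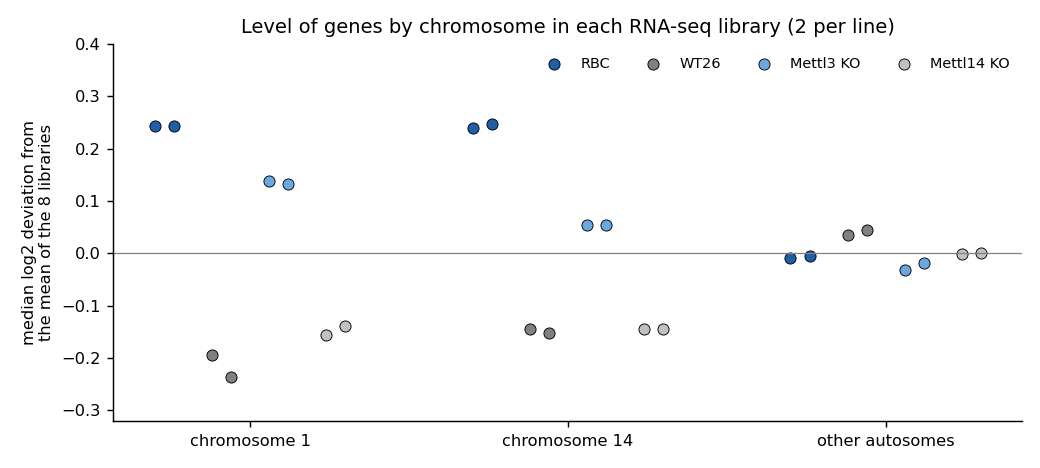
Median over genes of the log2 deviation from the mean of the 8 RNA-seq libraries, for chromosome 1, chromosome 14 and the other autosomes; each point is 1 library. RBC is at 0.24 on chromosome 1 and WT26 at -0.19 and -0.24. The other autosomes are pooled, and their single medians for *Mettl3* KO against *Mettl14* KO cells were between -0.36 and 0.43.

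The shift was present in every window of both chromosomes that held enough genes to be measured. In windows of 10 Mb with at least 20 genes, all 15 such windows of chromosome 1 had a median between 0.40 and 0.55, and all 7 of chromosome 14 between 0.33 and 0.51. Of the 180 windows on other autosomes 1 had a median beyond 0.3 in size, at the end of chromosome 4. There, in the 8 Mb that end at 150 Mb (bounds set after the values were seen), 80 of 88 genes were below 0, with a median of -0.51, and 28 of 123 tested genes were called lower and 0 higher. In the next window, from 150 to 160 Mb, the median was -0.14 in RNA-seq and -0.38 in the input. Within the 8 Mb the input median was -0.74 and that of *Mettl3* KO against *Mettl14* KO cells -0.04. The input libraries of RBC lay apart within these 8 Mb, with median deviations of -0.15 and -0.59, and those of WT26 had 0.38 and 0.40. Both knockout lines were near RBC there: the median deviation was -0.09 in both RBC libraries, 0.41 and 0.46 in WT26, -0.22 and -0.20 in *Mettl3* KO and -0.22 and -0.17 in *Mettl14* KO cells.

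The chromosome 4 segment holds a cluster of KRAB-type zinc finger genes, which are related in sequence and can share reads. Zfp993, called lower with a log2 fold change of -2.42, had 26.4 and 16.8 normalized counts in RBC and 104.9 and 125.6 in WT26. Zfp992, chosen after its values were seen because it has the most reads of the called zinc finger genes there, had 1308 and 1331 normalized counts in RBC and 2840 and 2693 in WT26 (log2 fold change -1.07, SE 0.0477). Zfp991 (-1.10) and Zfp534 (-1.01) were called too, Zfp534 not without replicate 1 of RBC or replicate 1 of WT26, and Zfp992, Zfp991 and Zfp534 had log2 fold changes of -0.08, -0.06 and -0.10 in *Mettl3* KO against *Mettl14* KO cells. Over the genome, 338 Zfp genes had a median of -0.02 in the input, with 3 called higher and 3 lower. In RNA-seq 339 Zfp genes were tested, of which 10 were called lower and 2 higher, beside 4.03% and 4.55% of all autosomal genes. Their median was -0.11 (median of all autosomal genes -0.01). Without replicate 1 of RBC 4 Zfp genes were called higher, without replicate 2 of RBC or replicate 2 of WT26 3 were, and scaled by library size 15 were called lower. Without the zinc finger and Gm genes the 45 other genes of the segment had a median of -0.43.

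Called genes were also found side by side. There were 37 runs of 3 or more neighbouring tested genes called in the same direction, 25 higher and 12 lower in RBC, which held 124 genes or 8.86% of those called. The longest, from Sgk3 to Cspp1 on chromosome 1 (9798107 to 10136768), had 7 genes around a median of 1.64 (log2 fold change), and 6 of these were also called higher in *Mettl3* KO than in *Mettl14* KO cells. Cspp1, a centrosomal protein gene, had 7205 and 6912 normalized counts in RBC and 2477 and 2460 in WT26. In the major histocompatibility region of chromosome 17 (36141758 to 36171805), all 5 genes from Gm10499 to Gm20478 were higher in RBC, in the input libraries and in *Mettl3* KO cells. At the Trim cluster of chromosome 7, Trim34a, Trim5 and Trim12a were higher in RBC and their neighbours Trim34b, Trim12c and Trim30d were lower, and these paralogs can share reads. Trim12c had 21.8 and 30.6 normalized counts in RBC and 94.0 and 97.7 in WT26.

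Pluripotency genes were close between the lines. Of 15 core pluripotency genes 0 were called, and log2 fold changes ranged from -0.60 (Dppa2) to 0.18 (Lin28b) around a median of -0.01. On the adjusted p alone 5 of 15 differed, 1 higher and 4 lower, beside 38.6% of all autosomal genes. Pou5f1, which encodes Oct4, had 3250 and 3362 normalized counts in RBC and 3395 and 3460 in WT26 (adjusted p = 0.446 in edgeR). Nanog had 1967 and 2036 against 1876 and 1997, and Sox2 2184 and 2106 against 1951 and 2056.

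Among 12 naive pluripotency genes, the transcription factors and their targets of the ground state, 1 was called, Klf2, with 358.7 and 304.6 normalized counts in RBC and 648.4 and 722.6 in WT26 (log2 fold change -1.05, SE 0.0904). Without replicate 2 of RBC its log2 fold change was -0.93 and without replicate 2 of WT26 -0.97, past the limit on the adjusted p but short of that on the fold change. Zfp42 (-0.58), Tbx3 (-0.43), Tcl1 (-0.36), Fbxo15 (-0.35), Klf4 (-0.18) and Esrrb (-0.16) were lower on the adjusted p alone. Gbx2 (0.52), Nr5a2 (0.48) and Klf5 (0.47) were higher, and these 3 lie on chromosomes 1 and 14. Tfcp2l1 (-0.05) and Prdm14 (0.20), both on chromosome 1, did not pass. Of all autosomal genes 38.6% passed on the adjusted p alone. Of the 12 genes of the LIF-Stat3 pathway 0 were called, with a median of -0.03.

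The called germline genes were all higher in RBC. Of 25 tested, 10 were called higher in RBC and 0 lower, beside 4.55% and 4.03% of all autosomal genes. Their median log2 fold change was 0.49. On the adjusted p alone 15 were higher and 2 lower, and 38.6% of all autosomal genes differed either way. Sycp1, a component of the synaptonemal complex that pairs meiotic chromosomes, had 740.3 and 735.4 normalized counts in RBC and 82.3 and 66.6 in WT26 (log2 fold change 3.30, SE 0.124). Its partners of the complex Sycp2 (1.77) and Syce1 (1.18) were higher too. Of the genes of the piRNA pathway, which silences transposons in germ cells, Asz1 (2.46), Mov10l1 (1.66), Tdrd1 (1.38), Tdrkh (1.30) and Piwil2 (1.19) were called. Piwil2 had 1099 and 1167 normalized counts in RBC and 493.8 and 503.5 in WT26. It lies on chromosome 14, whose median log2 fold change was 0.39, and had 0.68 in the input (adjusted p = 0.114 in edgeR). Tuba3b, a testis tubulin, and Slc25a31, the germ cell ADP/ATP carrier, had log2 fold changes of 1.94 and 1.53, and the adjusted p of Tuba3b in DESeq2's Wald test was 0.0625.

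Members of the list that were not called included the germ cell markers Ddx4 and Dazl, with log2 fold changes of 0.01 and 0.34, and Sycp3 (-0.73), all chosen after their values were seen. The input libraries differed from RNA-seq at Sycp1, with 532.2 and 308.5 normalized counts in RBC and 365.1 and 314.9 in WT26, giving a log2 fold change of 0.30 (adjusted p = 0.604 in edgeR). Genes on the other strand overlap Sycp1, and its neighbours from Tspan2 were called higher in RBC as well. Mov10l1 (1.09) and Sycp2 (1.54) were called in the input, where 23 of the genes were tested and 2 called. Of all autosomal genes 1.20% were called higher there. Between *Mettl3* KO and *Mettl14* KO cells 1 gene of the list was called higher and 7 lower in *Mettl3* KO, with a median of -0.20. Of all autosomal genes 5.46% were higher and 7.51% lower in that comparison. Asz1 was among the lower ones (-3.45), and Sycp1 had 181.7 and 138.0 normalized counts in *Mettl3* KO and 138.2 and 153.9 in *Mettl14* KO cells.

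**Figure D4:**
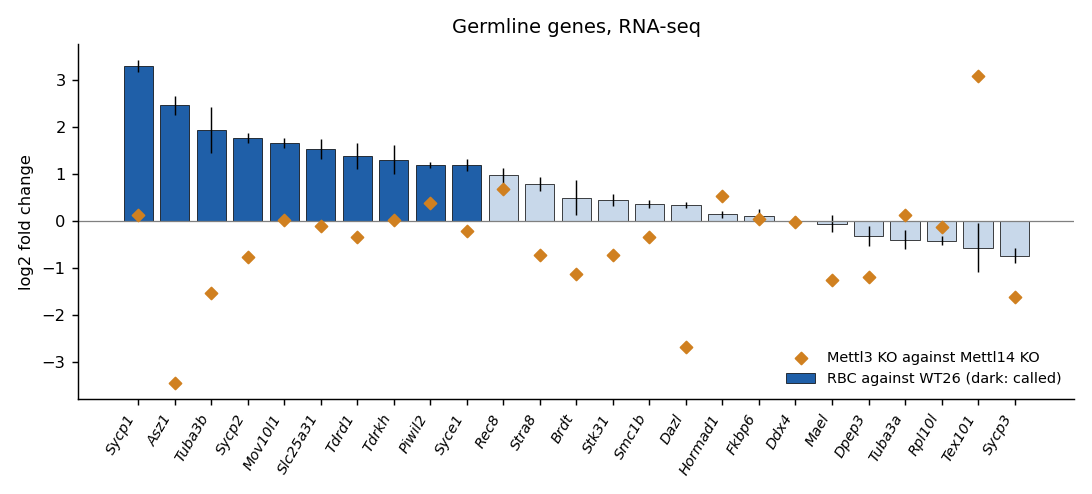
Differences (log2 fold change) of 25 germline genes in RBC against WT26 (bars with standard error, dark where called) and in *Mettl3* KO against *Mettl14* KO cells (diamonds), both from RNA-seq. The 10 dark bars range from 1.18 to 3.30, and the diamonds of these genes from -3.45 to 0.38.

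Promoters of many germline genes hold an E-box, CACGTG, the site bound by repressor complexes that contain Max and Mga. The letters CACGTG were searched on both strands in the 250 bases before each start in RefSeq promoters of autosomal genes (GRCm38.p6), and 6.88% of 25748 genes held them. Of 24 listed germline genes with a promoter there, 11 held the letters, and of the 9 called ones 4 did. A second motif, TTCCCGC, which resembles sites of E2F6 and does not overlap the first, was in 4.40% of all these genes, in 7 of the 24 and in 1 of the 9. A stretch of each of the 4 called promoters with an E-box is shown for the reader to see the site in its surroundings, with the E-box in capitals, 5′ to 3′ on the strand of the gene.
Sycp1, chr3:102936162-102936221, minus strand: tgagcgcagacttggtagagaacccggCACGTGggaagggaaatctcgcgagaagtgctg
Slc25a31, chr3:40708751-40708810, plus strand: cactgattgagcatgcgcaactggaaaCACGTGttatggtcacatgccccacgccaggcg
Mov10l1, chr15:88982744-88982803, plus strand: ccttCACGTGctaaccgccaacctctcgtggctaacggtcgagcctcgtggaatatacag
Tdrd1, chr19:56826149-56826208, plus strand: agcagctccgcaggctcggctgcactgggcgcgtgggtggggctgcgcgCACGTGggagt
The E-box began 94 bases before the start in Sycp1, 93 in Slc25a31, 246 in Mov10l1 and 11 in Tdrd1. The listed genes with an E-box that were not called were Brdt (log2 fold change 0.49), Stk31 (0.45), Hormad1 (0.14), Fkbp6 (0.12), Ddx4 (0.01), Mael (-0.05) and Sycp3 (-0.73). Whether the E-box bears on the difference between the lines was not tested.

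Of the imprinted genes outside the Dlk1-Dio3 locus 36 were tested, and 2 were called higher and 2 lower. Over all autosomal genes tested 4.55% were called higher and 4.03% lower. Without replicate 1 of WT26 4 were higher, and without replicate 1 of RBC 1 was. Peg3, a paternally expressed zinc finger gene spanning 6703892 to 6730431 on chromosome 7, had 842.6 and 799.5 normalized counts in RBC and 3794 and 3908 in WT26 (log2 fold change -2.23, SE 0.05). Its neighbour Usp29, which shares the imprinted promoter region, had 18.4 and 20.7 against 62.4 and 59 (-1.63). Both were also called lower in the input (-2.16 and -1.53) and in *Mettl3* KO against *Mettl14* KO cells (-2.90 and -1.91). Cdkn1c, a maternally expressed inhibitor of the cell cycle, was higher (1.72), with 56.3 and 60.1 normalized counts in RBC and 19 and 16.1 in WT26. Igf2 (1.11) was called with at most 26.4 normalized counts in a control library, and its adjusted p was 0.221 without replicate 1 of RBC, 0.0775 without replicate 1 and 0.176 without replicate 2 of WT26.

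At the Dlk1-Dio3 locus 0 of 5 genes were called, with a median of 0.53. On the adjusted p alone 3 of the 5 were higher, beside 38.6% of all autosomal genes that differed either way. Without replicate 2 of RBC, or without replicate 1 of WT26, 1 was called higher. Meg3, a maternally expressed noncoding RNA of the locus that was picked after its values were seen, had 5814 and 5391 normalized counts in RBC and 4040 and 4050 in WT26 (log2 fold change 0.47). It had 30.4 and 27.2 in *Mettl3* KO and 2556 and 2593 in *Mettl14* KO cells.

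Of the listed genes of the interferon response and of double-stranded RNA sensing, those called were lower in RBC. There were 6 called lower and 0 higher of 21 tested, with a median of -0.28. Of all autosomal genes 4.03% were called lower and 4.55% higher. Mx1, an interferon response gene outside the list, was called higher in RBC. It lies in a run of 3 higher genes on chromosome 16 with a median log2 fold change of 2.78. Ifitm3, a membrane protein that restricts virus entry, had 254.1 and 228.7 normalized counts in RBC and 779.5 and 820.3 in WT26 (log2 fold change -1.73, SE 0.0911), and Ifitm1 113.8 and 109.4 against 247.8 and 270.6 (-1.21). The other 4, Oasl1 (-2.80), Rsad2 (-2.24), Zbp1 (-1.90) and Oas1a (-1.68), had at most 64.2 normalized counts in any control library. The input called 1 of the 19 tested there, Ifitm3 (-1.68), beside 1.24% of all autosomal genes called lower. Oas1a had the opposite difference in *Mettl3* KO against *Mettl14* KO cells (2.03).

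In the Nodal and BMP pathways 3 of 24 genes were called higher and 1 lower, beside 4.55% and 4.03% of all autosomal genes. Lefty1 and Lefty2, secreted inhibitors of Nodal that lie next to each other on chromosome 1, had log2 fold changes of 2.38 and 2.25. Lefty2 had 218.4 and 189.3 normalized counts in RBC and 42.5 and 42.9 in WT26, and 547.0 and 598.3 in *Mettl3* KO and 198.3 and 207.5 in *Mettl14* KO cells. Furin, a convertase that processes Nodal, was lower (-1.13). Id2 (1.5) had at most 20.7 normalized counts, and its adjusted p was 0.283 without replicate 1 of RBC, 0.0699 without replicate 1 and 0.139 without replicate 2 of WT26.

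Of 30 genes of the extracellular matrix and integrins 4 were higher and 2 lower, beside 4.55% and 4.03% of all autosomal genes. The lower ones were Col4a1 and Col4a2, which encode the chains of basement membrane collagen IV and are transcribed from a shared promoter in opposite directions. Col4a1 had 1535 and 1571 normalized counts in RBC and 4303 and 4582 in WT26 (log2 fold change -1.52, SE 0.0466), and Col4a2 549.5 and 540.2 against 1582 and 1636 (-1.56). Their annotations overlap at the starts. The higher ones were Thbs1 (3.45), the secreted adhesion protein thrombospondin, Timp2 (1.63), Lamb1 (1.20), and Col18a1 (1.01), which lay at the limit and had a log2 fold change of 0.97 without replicate 1 of RBC. Lamb1 had 2453 and 2468 normalized counts in RBC and 1057 and 1083 in WT26.

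Glutamate receptors and ion channels were called in both directions, 13 higher and 9 lower of 78 tested, with a median of 0.17. Over all autosomal genes 8.58% were called, and 17.8% of those averaging under 50 normalized counts. The potassium channel genes Kcnk2 (4.19) and Kcnj3 (4.05) and the NMDA receptor subunit gene Grin2b (3.02) were higher, and Grm8 (-3.22) and Kcnj12 (-2.40) were lower, next to Grin1. Kcnj3 had 74.7 and 60.1 normalized counts in RBC and 1.8 and 6.4 in WT26. Without replicate 1 of RBC 8 were called higher and 7 lower.

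Of 21 writers, readers and erasers of m6A, the mark the study is about, 0 were called, with a median log2 fold change of 0.13. On the adjusted p alone 10 of the 21 differed, 8 higher and 2 lower, beside 38.6% of all autosomal genes. Scaled by library size, 4 were higher and 6 lower on the adjusted p alone, around a median of -0.02, and 1 was called lower. Mettl3, the catalytic subunit of the methyltransferase on chromosome 14, had 927.7 and 978.9 normalized counts in RBC and 714.4 and 720.4 in WT26 (0.41, adjusted p = 0.00018 in edgeR). Zc3h13 (0.56) and Hnrnpc (0.42) also lie on chromosome 14. Mettl14, its partner subunit, had 435.7 and 412.1 against 400.6 and 357.5 (0.16, adjusted p = 0.156 in edgeR). The reader Igf2bp2 was nearest to a call, with 223.0 and 230.7 in RBC and 468.4 and 424.1 in WT26 (-0.98), and was called lower in the input (-1.04). It passed the limit in RNA-seq without replicate 2 of WT26 (-1.05) and when scaled by library size (-1.12).

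Several lists had small differences that ran mostly in a single direction. For comparison, 38.6% of all autosomal genes differed on the adjusted p alone, counting both directions. Of 20 cholesterol synthesis genes 14 were higher on the adjusted p alone and 0 lower, with a median log2 fold change of 0.28. Of 77 ribosomal protein genes 59 were higher and 1 lower, with a median of 0.25, and Rps3a1 (1.05) was called, but not when scaled by library size (0.91). Without replicate 1 of RBC or replicate 2 of WT26 2 ribosomal protein genes were called. Scaled by library size, the numbers were 10 and 0 for cholesterol synthesis and 23 and 3 for ribosomal protein genes. The input median of the ribosomal protein genes was 0.03. Of the genes for DNA methylation (15), H3K9 methylation and HP1 (25), Polycomb (27), glycolysis (20) and p53 targets (16) 0 were called, with medians between -0.10 and 0.10, and 1 glycolysis gene was called lower without replicate 2 of RBC.

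A few members were called in other lists, beside 4.55% of all autosomal genes called higher and 4.03% called lower. Cdh3, the adhesion molecule P-cadherin, had 747.2 and 686.1 normalized counts in RBC and 198.0 and 206.1 in WT26 (log2 fold change 1.83) and was the only one of 14 cadherins and catenins to be called with all libraries. Without replicate 2 of RBC, and without each replicate of WT26, 2 were called. Of 13 formative and primed genes Grhl2 (2.02), a transcription factor of epithelial genes, and the Wnt modulator Sfrp2 (1.54) were higher. Of 11 immediate early genes Egr2 (2.99) and Jun (1.06) were higher, and Egr2 had at most 17.7 normalized counts in a control library. Jun had a log2 fold change of 0.86 without replicate 1 of WT26, short of the limit. The list of small nucleolar RNA genes had 66 tested, fewer than the 207 of that kind above. Of these 66, 3 were called higher, a share near the 4.55% of all autosomal genes. They were Snord87, Snora41 and Snord82, and all 3 lie on chromosome 1. Without replicate 1 of RBC 13 were called higher, and without replicate 1 of WT26 7.

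The MeRIP input libraries measured the same pair of lines a second time. They had a coefficient of variation of 0.163, and of 18774 autosomal genes 225 (1.20%) were called higher in RBC and 232 (1.24%) lower. Of the 742 genes higher in RNA-seq 634 were tested in the input, where 155 (24.4%) were called higher and 1 lower, and 96.1% had a log2 fold change above 0. Of the 658 lower genes 582 were tested, 167 (28.7%) were called lower and 0 higher, and 94.3% were below 0. Seen from the input, 68.9% of its higher and 72.0% of its lower calls were RNA-seq calls in the same direction. Leaving out an input library, which left a line with 1 library, gave fewer calls. There were 117 higher without replicate 1 of RBC, 65 without replicate 1 and 109 without replicate 2 of WT26, and there were 118 lower without replicate 2 of RBC, 85 without replicate 1 and 133 without replicate 2 of WT26. The 322 calls shared with RNA-seq became 109 without replicate 1 of WT26, 169 without replicate 1 of RBC and 191 without replicate 2 of WT26.

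*Mettl3* KO and *Mettl14* KO cells descend from RBC and WT26 and share no library with them. Between them 891 genes (5.46%) were called higher and 1226 (7.51%) lower in *Mettl3* KO. Of the 742 genes higher in RBC than in WT26, 149 (20.1%, and 16.7% of the 891) were also higher in *Mettl3* KO than in *Mettl14* KO cells, and 115 (15.5%) were lower. Of the 658 lower genes 208 (31.6%, and 17% of the 1226) were lower there as well and 29 (4.41%) were higher. Pseudogenes were called the same way in both pairs in 36.8% of 95 calls, protein-coding genes in 26% of 1016 and long noncoding RNA genes in 23.1% of 186.

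Nod1, Rgcc, Gm36816, Rps13-ps1 and Peg3 were among the genes called the same way in the knockouts as in their control lines. Nod1 had 26.1 and 30.2 normalized counts in *Mettl3* KO and 370.6 and 351.7 in *Mettl14* KO cells, close to 21.8 and 30.6 in RBC and to 425.9 and 516.4 in WT26. Others were not. Grin1 had 77.4 and 65.5 in *Mettl3* KO and 16.0 and 14.6 in *Mettl14* KO cells, the reverse of its order in the control lines. Ptprq had 88.5 and 88.7 in RBC but 8.7 and 15.1 in *Mettl3* KO cells. A test of the difference between the pairs called 2208 of all genes (13.5%), among them 664 of the 1400 (47.4%), which were selected for a large difference in the control pair.

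**Figure D5:**
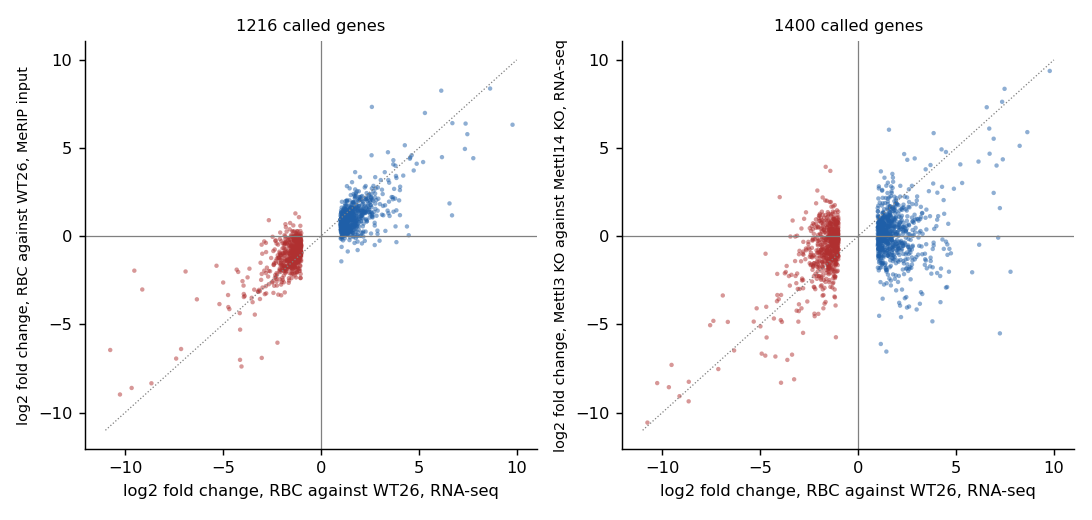
Log2 fold change of genes called between RBC and WT26 in RNA-seq (horizontal axes; blue higher and red lower in RBC) against that of the same lines in MeRIP input (left, genes tested in both) and of *Mettl3* KO against *Mettl14* KO cells in RNA-seq (right, 1400 genes); the dotted line marks equal values. On the left 96.1% of the blue points are above 0, and on the right both colours lie on both sides of 0.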

How the data were processed

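Nuclear RNA of WT26, RBC, *Mettl14* KO and *Mettl3* KO ES cells was sequenced after rRNA depletion (TruSeq Stranded Total RNA Gold), with 2 replicates per line. The authors deposited raw read counts per gene, without normalization, and for MeRIP input also per repeat. Per the submitters' processing notes, cutadapt 1.8.1, STAR 2.6.0c, DESeq2 1.26.0 and GRCm38 were used. The RNA-seq counting tool and its strand setting are not given in the sources used here, so genes that overlap on opposite strands are uncertain. Every column was assigned to a sample (0 left over).

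Counts were scaled with DESeq2 1.42.0 size factors and filtered with filterByExpr, and edgeR 4.0.16 (R 4.3.3) quasi-likelihood tests were fitted to all 8 libraries of a table, with Benjamini-Hochberg adjustment over all 17022 (RNA-seq) or 19560 (input) genes tested, X, Y, mitochondrial and unplaced genes included. The fit was tested on simulated data. Positions came from GENCODE annotation of GRCm38, which matched all but 627 gene identifiers, and promoters from RefSeq, without those of chromosome 18. Line, culture and library preparation cannot be told apart. Counting intervals are exact binomial and cover counting error only.

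The members and gene lists were chosen with earlier results of these data known. Genes were named when among the 8 largest rises or falls (protein-coding or long noncoding, mean of at least 50 normalized counts in the higher line, no overlap of replicates), the 2 largest each way among pseudogenes, called members of a list (values for at most 6 by size, all for germline genes), members of the core and naive pluripotency, Rosa26 and m6A lists, ends of runs, or among the 3 genes with most reads in a library. Of the latter, Gm26917 took 6.24% to 7.01% of reads and CT010467.1 3.40% to 7.47%. Outside the autosomes 14 of 19 mitochondrial, 82 of 590 X and 12 of 16 Y genes were called. Alternatives were another test, scaling or filter, a replicate block, the 4 libraries alone and leaving out each library.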

Additional observations from a re-analysis of the deposited data

Results flagged for a closer look

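The difference between RBC and WT26 was set against that between *Mettl3* KO and *Mettl14* KO cells in a single edgeR model, as control pair minus knockout pair on the log2 scale. Of a set of 60 of the genes given with values, 24 were called by this test (absolute difference above 1, adjusted p at most 0.05). In 16 of these 24 the pairs had opposite signs. Other genes given with values passed too but are outside the set, such as Kcnk2 (6.45), Grhl2 (3.39) and Kcnj12 (-2.70). These genes had been chosen for their difference in the control pair, which favours such a result.

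Among the genes higher in RBC, the difference was 7.94 for 1700019E08Rik, 7.42 for Gm28321, 6.65 for Ptprq, 5.71 for Mgat4c, 3.12 for Tagln and 2.20 for Myo7a. For the germline genes it was 5.91 for Asz1, 3.46 for Tuba3b, 3.16 for Sycp1, 2.52 for Sycp2, 1.71 for Tdrd1, 1.63 for both Mov10l1 and Slc25a31, 1.39 for Syce1 and 1.28 for Tdrkh. Lamb1 (1.87) and Timp2 (1.59) were the genes of the extracellular matrix called in this set.

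Among the genes lower in RBC, the difference was -6.22 for Grin1, and Gt(ROSA)26Sor (-1.70) and Klf2 (-1.39) were called as well. For the interferon genes it was -3.71 for Oas1a, -2.66 for Zbp1, -1.93 for Oasl1 and -1.76 for Ifitm1.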

How the results depend on the processing

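For a set of 60 of the genes given with values, the direction was the same in all 688 refits. The call was lost in 15 of these, for Klf2, Tuba3b, Igf2, Id2 and Col18a1. For the 176 other named genes 153 of 2053 refits lost the call, in 49 genes, and 0 reversed. Some of these 49 are also given with values above, such as Pdgfrb, Zfp534, Jun and Rps3a1. Calling on the adjusted p alone gave 3161 higher and 3138 lower genes in RBC, 436 and 373 in the input, 4296 and 4404 between the knockouts, and 2517 and 728 shared with the knockout pair and the input. With at least 10 counts in every library these were 363 and 314, 124 and 145, 489 and 636, and 166 and 187, from fewer genes tested. DESeq2's Wald test called 424 lower genes in RBC. Without a filter the input called 408 and 408, with 494 shared. Leaving out single libraries gave 65 to 150 higher and 85 to 156 lower input calls, and 109 to 328 shared ones (the RNA-seq libraries included).

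The shift of chromosome 1 over autosomes other than 1 and 14 was between 0.48 and 0.53 under 12 alternatives and that of chromosome 14 between 0.43 and 0.45. Centring each gene on its chromosome median, chosen after seeing the data, gave 686 higher and 618 lower, and leaving out the genes of chromosomes 1 and 14 gave 531 and 616.

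Same-numbered RBC and WT26 libraries deviated with a correlation of -0.176 across 11433 genes, those of RBC and *Mettl3* KO with 0.459, of *Mettl3* KO and *Mettl14* KO with 0.0576 and of WT26 and *Mettl14* KO with -0.0755, and the study does not say that numbers mark shared preparations. The replicate block gave 749 higher and 649 lower genes, and 306 and 319 in the input. With the numbers of WT26 crossed the RNA-seq calls were 738 and 647.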
